A study of Mus musculus with 8 samples.

Results

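A set of 10 mouse genes of the ATP-binding cassette (ABC) transporter family was described in cultured cardiac fibroblasts. They are Abca8b, Abca8a, Abca9, Abca6 and Abca5, which lie side by side on chromosome 11, and Abca1, Abcg1, Abca7, Abca2 and Abca3 from elsewhere in the genome. They make up 10 of the 22274 genes in the count table. The set was chosen from the contrast described here, around Abca8a, whose log2 fold change is among the most negative in the data. The other members were added by name, as its gene cluster and as relatives known to move lipids. The differences between the groups are therefore given for the members as description, with standard errors and without p-values.

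The cells were primary murine cardiac fibroblasts, and all 8 libraries carry the label TGF-b. The study's methods give TGF-β, the cytokine that turns fibroblasts into contractile, collagen-secreting myofibroblasts, at 5 ng/ml for 24 h. Of the libraries, 4 are labelled GFP, the control, which the study's text calls an empty vector, and 4 are labelled OEIRF7, for overexpression of IRF7, a transcription factor of the interferon response. The study's text names an adenovirus as the carrier, whereas the deposited design names an adeno-associated virus, and by the study's text every library is from virus-treated cells. In the study's reagent list the adenovirus is named for human IRF7 with FLAG and EGFP tags. The labels do not say whether the libraries of a group came from separate cultures or animals, so the p-values below measure only the spread between these libraries. No library without TGF-β or without virus was analysed here.

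ABC transporters spend ATP to move substrates across membranes, and the members of the A subfamily carry mostly lipids. Abca1 is known to hand cholesterol and phospholipid to apolipoprotein A-I at the cell surface, and Abcg1 to pass cholesterol on to lipoprotein particles that have already formed. The genes of both are switched on by the liver X receptors (LXRs), nuclear receptors that sense oxysterols. In tissues such as the heart, stromal cells and macrophages are known sites of Abca1 expression, while less is known of the transporters in the Abca8a cluster.

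Depth was close between libraries, with totals from 24454801 to 28658826 counts, and 13533 genes passed the filter on low counts, all 10 members among them. Levels are given as CPM, counts scaled to a common library size with TMM factors, or per length as the deposited FPKM. Irf7 RNA was lower in the libraries labelled OEIRF7, at 14.5 to 16.4 CPM against 92.0 to 147 CPM in those labelled GFP, so mouse Irf7 RNA does not follow the label (log2 fold change -2.96, SE 0.12, edgeR adjusted p = 7.7e-11).

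Markers of the cell types such a culture could hold are given beside the share of all tested genes that edgeR called. Of all tested genes, 29.0% were called higher, 29.9% lower and 58.9% in either direction. Of 8 fibroblast markers (Col1a1, Col1a2, Col3a1, Dcn, Pdgfra, Tcf21, Thy1 and Ddr2) edgeR called 1 higher and 4 lower, and their sum, mostly collagen RNA, was 10933 to 11495 CPM in GFP libraries and 9711 to 10451 CPM in OEIRF7 libraries. Tcf21, a factor of resident fibroblasts, fell from 58.3 ± 6.13 to 23.1 ± 3.49 CPM (log2 fold change -1.33, SE 0.10, edgeR adjusted p = 2e-08). Of 8 macrophage markers (Ptprc, Adgre1, Cd68, Csf1r, Lyz2, Fcgr1, Mrc1 and C1qa) 4 were called higher and none lower, with a sum of 274 to 325 CPM against 335 to 376 CPM, and Mrc1 rose by 1.05 on the log2 scale (SE 0.11, edgeR adjusted p = 9.9e-07). Of 6 endothelial markers (Pecam1, Cdh5, Kdr, Tie1, Emcn and Vwf) 3 were called higher and 1 lower, none past a log2 fold change of 1, with a sum of 201 to 214 CPM against 203 to 230 CPM. Of 6 mural cell markers (Rgs5, Kcnj8, Abcc9, Cspg4, Mcam and Notch3), 5 of them tested, 2 were called higher and 2 lower, led by Cspg4, from 22.4 ± 1.84 to 63.3 ± 7.18 CPM, and Notch3, from 41.4 ± 2.63 to 13.6 ± 2.36 CPM, with a sum of 122 to 133 CPM against 105 to 127 CPM. Of 5 epicardial markers (Upk3b, Msln, Wt1, Krt19 and Upk1b) 2 were called higher and 1 lower, led by Krt19, from 4.75 ± 1.26 to 18.5 ± 4.74 CPM, and Upk3b, from 51.8 ± 7.24 to 20.8 ± 2.45 CPM, with a sum of 72.4 to 88.6 CPM against 58.3 to 65.8 CPM. Of 6 cardiomyocyte markers, with a sum of 9.80 to 13.5 CPM against 7.42 to 9.69 CPM, Tnnt2 alone was tested and fell by 0.54 (SE 0.11, edgeR adjusted p = 0.00057) from 248 to 331 counts a library to 175 to 231. Ryr2 had 1 to 4 counts in GFP libraries and 5 to 13 in OEIRF7 libraries, and Myh6, Actc1, Tnni3 and Nppa had at most 9 counts in any library. No marker was at 0 in all libraries. What these marker levels contribute to the members' values was not tested, and in such bulk RNA fewer cells of a type and less RNA per cell cannot be told apart.

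The cluster spans chr11:109932190-110337716 in GRCm38, 405.5 kb, and all 5 genes are read from the minus strand. Abca8b lies at chr11:109932190-109995845, Abca8a at chr11:110025634-110095978, Abca9 at chr11:110100749-110168196, Abca6 at chr11:110176820-110251776 and Abca5 at chr11:110269369-110337716. The gaps between neighbours are 29.8 kb from Abca8b to Abca8a, 4.77 kb from there to Abca9, 8.62 kb to Abca6 and 17.6 kb to Abca5. Each gene has 38 or 39 exons once its transcripts are merged. Abca1 lies at chr4:53030787-53159895 on the minus strand. The other members are on the plus strand, Abca7 at chr10:79996494-80015572, Abca3 at chr17:24351950-24410201, Abcg1 at chr17:31057675-31117988 and Abca2 at chr2:25428703-25448540. The minus-strand neighbours differ in the sequence before their start sites, which is shown for 4 cluster genes and for Abca1 because these are the neighbours of Abca8a with a matched window, among them the lowest and highest CG content of the members, and the lower member from outside the cluster. The windows are chr11:109995846-109996095 for Abca8b, chr11:110095979-110096187 for Abca8a, chr11:110168197-110168403 for Abca9, chr11:110337717-110337966 for Abca5 and chr4:53159896-53160145 for Abca1. They are RefSeq promoter windows on GRCm38.p6, read 5′ to 3′ on the minus strand and trimmed to the bases before the first GENCODE exon, and capitals mark each CG dinucleotide.
Abca8b: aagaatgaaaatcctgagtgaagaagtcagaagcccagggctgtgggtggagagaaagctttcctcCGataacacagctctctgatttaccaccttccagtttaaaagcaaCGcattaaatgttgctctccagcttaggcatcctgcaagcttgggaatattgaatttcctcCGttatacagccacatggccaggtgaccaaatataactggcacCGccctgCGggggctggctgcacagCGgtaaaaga
Abca8a: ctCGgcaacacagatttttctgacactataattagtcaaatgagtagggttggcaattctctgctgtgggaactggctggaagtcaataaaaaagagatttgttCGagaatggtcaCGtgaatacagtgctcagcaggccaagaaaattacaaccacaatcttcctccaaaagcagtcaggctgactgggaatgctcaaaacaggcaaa
Abca9: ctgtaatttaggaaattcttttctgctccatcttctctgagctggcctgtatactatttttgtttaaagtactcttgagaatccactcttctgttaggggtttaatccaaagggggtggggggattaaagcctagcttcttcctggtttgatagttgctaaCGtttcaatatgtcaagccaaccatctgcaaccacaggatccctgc
Abca5: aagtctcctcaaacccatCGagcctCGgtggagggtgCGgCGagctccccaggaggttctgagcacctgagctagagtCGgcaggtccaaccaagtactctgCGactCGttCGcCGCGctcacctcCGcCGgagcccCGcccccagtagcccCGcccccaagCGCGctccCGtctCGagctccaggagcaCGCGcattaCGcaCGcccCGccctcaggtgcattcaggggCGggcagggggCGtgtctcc
Abca1: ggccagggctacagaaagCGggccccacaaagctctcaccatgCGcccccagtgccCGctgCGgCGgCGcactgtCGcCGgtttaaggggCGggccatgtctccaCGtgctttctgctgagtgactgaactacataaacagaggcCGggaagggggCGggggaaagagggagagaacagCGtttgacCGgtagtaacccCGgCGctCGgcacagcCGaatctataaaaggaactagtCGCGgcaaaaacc

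CG dinucleotides were counted over the whole RefSeq window of 300 bases, 250 before and 50 after the start, a measure chosen after the expression values had been seen. RefSeq entries were matched for 8 of the 10 members, all but Abca6 and Abcg1. The Abca8a window held 4 CG, the Abca9 window 2 and the Abca8b window 10, against 40 in the Abca5 window. Abca1 and Abca2 had 26 each, Abca3 had 29 and Abca7 had 19. Over all 32851 promoters in the table the median was 7 CG, with quartiles of 3 and 20. Thus Abca5, the cluster gene with 40, was among the 3.91% of promoters with as many or more. In contrast, 68.6% of promoters had at least as many as Abca8a and 85.9% at least as many as Abca9. The same share was 43.5% for Abca8b and 16.9% for Abca1, so members with lower RNA lay on both sides of the median. GC content ran from 44.3% for Abca8a and 45.3% for Abca9 to 72.3% for Abca5, beside a median of 52.7%. GAAA followed by any 2 bases and then GAAAC, a core form of the interferon-stimulated response element (ISRE) that IRF proteins can bind, was searched on both strands. This motif occurs in 269 promoters, 0.819% of all, and in none of the 8 member windows. At that share 8 windows would seldom hold it, so its absence says little about IRF binding at these genes. Sequence beyond the windows was not searched, and the study places the IRF motif of Hk1 farther upstream than they reach. The study also mapped FLAG-IRF7 binding in cardiac fibroblasts by CUT&Tag, a sequencing assay of where a protein sits on DNA. Those data were not examined here. AGGTCA repeated in the same orientation after any 4 bases (DR4), the consensus of the element that LXR binds, was likewise searched on both strands. This exact form occurs in 5 promoters, 0.0152% of all, and in no member window. Only these exact letters were searched, so elements that depart from the consensus would be missed. The printed Abca1 window does hold tgacCGgtagtaaccc. Read on the other strand, it is 2 near copies of AGGTCA in the same orientation, 4 bases apart. How often such variants occur over all promoters or in the other members, and whether LXR binds this one, was not tested.

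Abca8a, a transporter of the cluster that gave the set its name, was the member with the largest difference. Its counts were 359, 385, 276 and 293 in GFP libraries 1 to 4, and 72, 49, 52 and 55 in OEIRF7 libraries 1 to 4. In CPM these were 13.4, 15.4, 11.2 and 11.2 against 2.79, 1.69, 2.04 and 2.23. Every library labelled OEIRF7 was thus well below every library labelled GFP, and the groups did not overlap. The means were 12.8 ± 2.04 and 2.19 ± 0.460 CPM (SD, n = 4 each), a level 5.85-fold higher in the GFP libraries, with a log2 fold change of -2.55 (SE 0.15). Counted from the most negative log2 fold change, Abca8a stood at rank 21 of the 13533 genes. Among genes with a mean above 5 CPM and with groups that did not overlap it stood at rank 4, after Cemip (-2.99), Map2 (-2.98) and Irf7 (-2.96) and just before Myl9 (-2.49). The next genes on that scale were Apcdd1 at -2.48 and Slc1a6 at -2.24.

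Abca8b, the closest member to Abca8a in protein sequence, at the end of the cluster away from Abca5, was also lower, but by less. Its level was 18.2, 21.5, 13.6 and 16.4 CPM in GFP libraries 1 to 4 and 6.71, 7.51, 5.77 and 8.64 CPM in OEIRF7 libraries 1 to 4. The lowest GFP library lay above the highest OEIRF7 library. The log2 fold change was -1.28 (SE 0.14), from 17.4 ± 3.33 to 7.16 ± 1.22 CPM, a level 2.44-fold higher in the GFP libraries. Of the counts of both genes together, Abca8a took 40.5% to 45.2% in GFP libraries and 18.4% to 29.4% in OEIRF7 libraries. At the level of transcripts 1.64% of the 50-base words in Abca8a transcripts also occur in another gene, all of these in Abca8b, and 2.45% of those in Abca8b do. Abca8b also shares 241 exon bases with Gm11697, a transcript of the opposite strand that is not in the table, and the sources used here do not say if reads were counted by strand.

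Abca9, another lipid transporter of the cluster, had 357, 367, 226 and 333 counts in GFP libraries 1 to 4 and 116, 145, 116 and 129 counts in OEIRF7 libraries 1 to 4. The groups stood apart, with GFP library 3 the lowest of its group, as it was for Abca8b. The log2 fold change was -1.37 (SE 0.13), from 12.5 ± 2.36 to 4.82 ± 0.354 CPM. Abca6, per length the member with the lowest level, had 4.52, 3.97, 4.38 and 3.70 CPM in GFP libraries and 1.32, 1.24, 1.30 and 1.74 CPM in OEIRF7 libraries, from 33 to 121 counts a library. Here too the groups did not overlap, and the log2 fold change was -1.57 (SE 0.16), from 4.14 ± 0.374 to 1.40 ± 0.232 CPM.

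Abca5, a transporter of late endosomes and lysosomes that closes the cluster, did not follow the other cluster genes. It had 32.2, 28.9, 30.1 and 31.5 CPM in GFP libraries and 32.6, 35.4, 30.5 and 31.4 CPM in OEIRF7 libraries. The groups overlapped, and the log2 fold change was 0.08 (SE 0.06). The means were 30.7 ± 1.48 and 32.5 ± 2.12 CPM. The ratio of Abca8a to Abca5 counts within a library was 0.354 to 0.534 in GFP libraries and 0.0477 to 0.0857 in OEIRF7 libraries, a comparison that needs no scaling between libraries. The same ratio for Abca8b, Abca9 and Abca6 likewise lay lower in every OEIRF7 library than in any GFP library. Summed over Abca8b, Abca8a, Abca9 and Abca6 the level was 46.8 ± 7.42 CPM in GFP libraries and 15.6 ± 1.72 CPM in OEIRF7 libraries, a ratio of 0.332. With Abca5 included the cluster sums were 77.5 ± 7.14 and 48.0 ± 2.85 CPM.

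**Figure D1:**
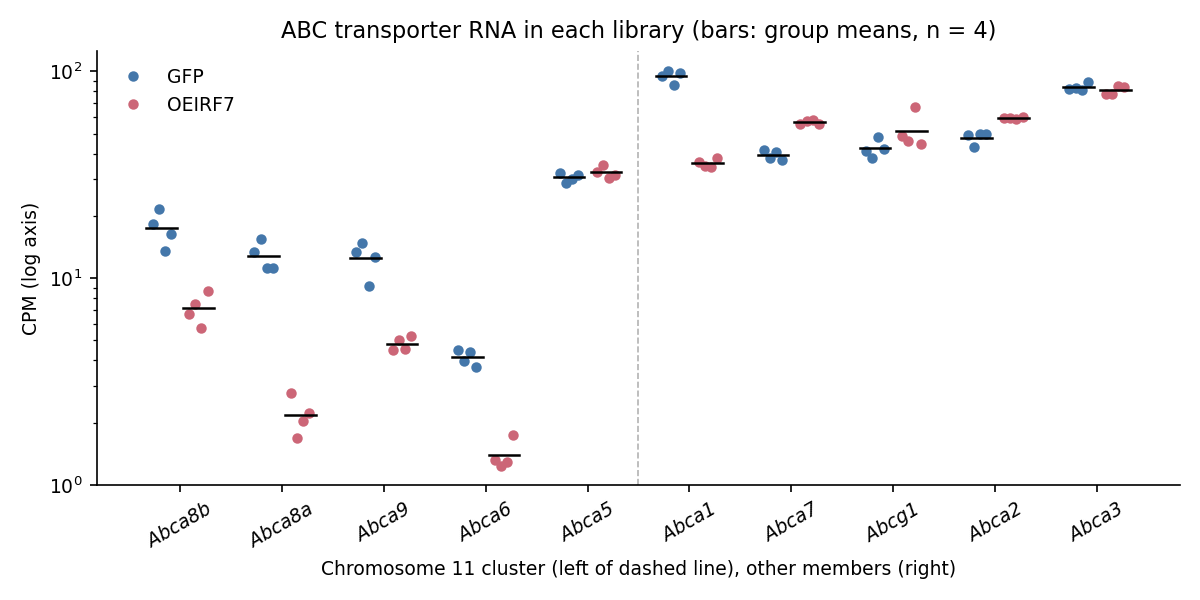
CPM on a log axis (vertical) of the 10 members (horizontal), with 1 point per library, GFP in blue and OEIRF7 in red, and a bar at each group mean of 4 libraries. The points of Abca8b, Abca8a, Abca9, Abca6 and Abca1 lie lower in all OEIRF7 libraries than in any GFP library, those of Abca7 and Abca2 lie higher, and those of Abca5, Abcg1 and Abca3 overlap.

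Abca1, the sterol exporter at the cell surface, was per length the most abundant of the members that were lower. Its level was 94.9, 101, 86.0 and 97.8 CPM in GFP libraries 1 to 4 and 36.4, 34.7, 34.4 and 37.9 CPM in OEIRF7 libraries 1 to 4. The OEIRF7 libraries all lay below the GFP libraries, and the spread within either group was small beside the distance between them. The means were 94.9 ± 6.36 and 35.8 ± 1.62 CPM, a level 2.65-fold higher in the GFP libraries, with a log2 fold change of -1.41 (SE 0.05). Abcg1, its partner in sterol export, did not do the same. It had 41.2, 38.0, 48.1 and 42.3 CPM in GFP libraries and 48.5, 46.0, 66.8 and 44.6 CPM in OEIRF7 libraries. The groups overlapped, OEIRF7 library 3 stood above the rest, and the log2 fold change of 0.28 (SE 0.11) was 0.13 without that library. Although Abcg1 was called higher by edgeR, the call was lost in 7 of 16 alternative fits, namely without GFP library 1, 2 or 4, without OEIRF7 library 3, with DESeq2, and with limma on FPKM at either pseudocount.

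Abca7, among the members the closest to Abca1 in protein sequence and known for phospholipid export and for phagocytosis, was higher in the libraries labelled OEIRF7. It had 41.4, 37.9, 40.8 and 37.0 CPM in GFP libraries and 55.4, 57.2, 58.3 and 55.7 CPM in OEIRF7 libraries. The groups did not overlap, and the log2 fold change was 0.53 (SE 0.05). Abca2, an endolysosomal transporter best known from brain, had 49.0, 42.8, 49.5 and 49.6 CPM in GFP libraries and 59.3, 59.2, 58.9 and 59.8 CPM in OEIRF7 libraries. The OEIRF7 libraries were all higher and differed little among themselves, and GFP library 2 was the lowest of its group, with a log2 fold change of 0.31 (SE 0.05). Abca3, which loads phospholipid into the lamellar bodies of surfactant-secreting lung cells, had 81.5 to 88.3 CPM in GFP libraries and 77.7 to 85.1 CPM in OEIRF7 libraries. These ranges overlapped, and the log2 fold change was -0.05 (SE 0.04). Abca3 shares 914 exon bases with D330041H03Rik on the opposite strand, so its level is less certain than the others.

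By the edgeR call of an adjusted p under 0.05, 5 of the 10 members were lower, 3 were higher and 2 were not called, where 29.9% of all tested genes were lower, 29.0% higher and 58.9% called in either direction. All 5 lower members were also past a log2 fold change of 1, and no higher member was, beside 3.89% of all genes lower, 4.66% higher and 8.56% in either direction past that line. Groups did not overlap for 5 lower and 2 higher members, against 27.0% and 26.8% of all genes, or 53.8% in either direction. Since the members were picked from this contrast, nothing is read from these counts. The median log2 fold change of the members was -0.67 and that of the 5 cluster genes -1.37, beside 0.00 over all genes tested. Summed over all 10, the level was 386 ± 7.73 CPM in GFP libraries and 333 ± 10.4 CPM in OEIRF7 libraries, a ratio of 0.862. With limma on log2(FPKM + 1), which compresses low levels, the log2 differences were smaller, at -1.21 for Abca8a, -0.77 for Abca8b, -0.73 for Abca9 and -0.49 for Abca6, with Abca1 at -1.17.

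Compared per length, on the deposited FPKM, the order of the members in the GFP libraries was Abca3 (12.9 ± 0.469 FPKM), Abcg1 (9.62 ± 2.51), Abca1 (9.16 ± 0.608), Abca2, Abca7, Abca5 (4.59 ± 0.272), Abca8b (2.53 ± 0.477), Abca8a (2.44 ± 0.273), Abca9 (1.93 ± 0.366) and Abca6 (0.782 ± 0.0699). Neighbours in that order whose libraries overlapped were Abca3 with Abcg1, Abcg1 with Abca1, Abca2 with Abca7, Abca8b with Abca8a, and Abca8a with Abca9. In the OEIRF7 libraries Abca3 (12.7 ± 0.557 FPKM) and Abcg1 (12.4 ± 3.60) still came first and overlapped. Abca1 was 3rd in the GFP libraries and 6th in the OEIRF7 libraries, at 3.52 ± 0.167 FPKM, below Abca7, Abca2 and Abca5 (5.29 ± 0.698). Abca8a went from 8th to 9th, at 0.485 ± 0.143 FPKM, and overlapped Abca6 at 0.270 ± 0.0469. The order depends on the length used. With CPM divided by the kilobases of all annotated exons, Abca1 came first in the GFP libraries, at 9.16 ± 0.614 CPM per kb, but did not differ beyond the spread from Abca3 at 8.95 ± 0.325, whose range of 8.70 to 9.42 lay within its own of 8.30 to 9.73. In the OEIRF7 libraries Abca1 was 5th.

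**Figure D2:**
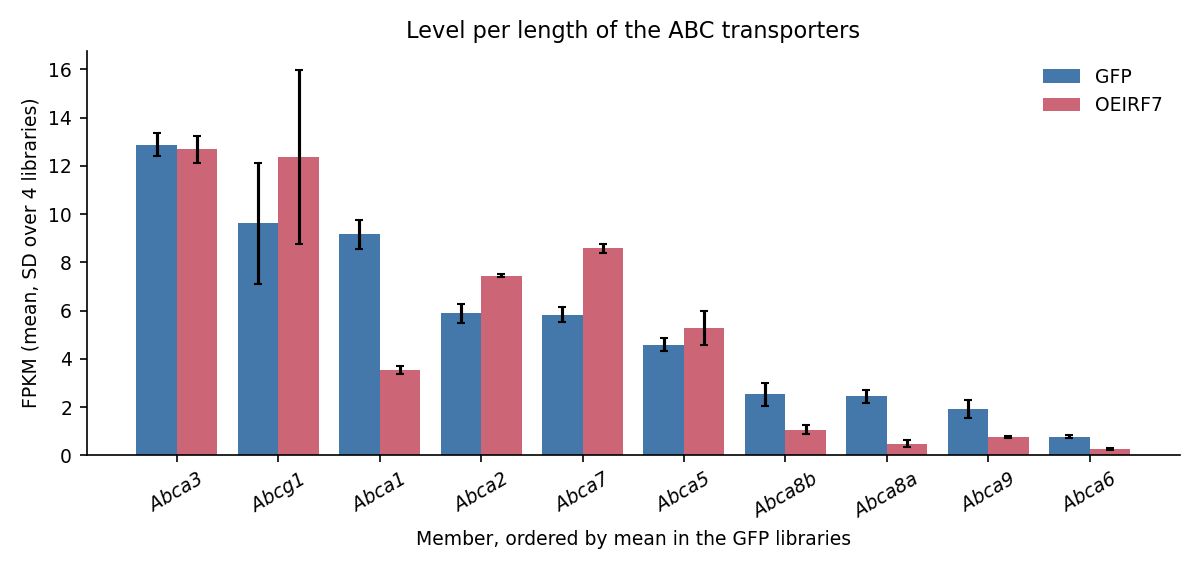
Mean FPKM (vertical) of each member (horizontal, in the order of the GFP means), GFP in blue and OEIRF7 in red, with SD over 4 libraries as error bars. Abca1 stands at 9.16 in the GFP group and at 3.52 in the OEIRF7 group, and the 4 lowest genes are those of the cluster other than Abca5.

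The members differ in how alike their proteins are, a property that is not independent of a choice by family name and gene cluster. Coding sequences of the annotation were translated and aligned in pairs. Abca8a and Abca8b, of 1620 residues each, were identical at 67.1% of aligned positions. Abca9 was identical to Abca8b at 63.8% and to Abca8a at 62.9%, and Abca6 to these 3 at 51.9% to 55.4%. Abca5 stood apart within the cluster, with 42.3% to 44.2% identity to its neighbours. Within the cluster, the genes that were lower are the 4 whose proteins are most alike, while Abca1 shared 54.9% with Abca7, whose difference had the opposite sign, and 47.2% with Abca2. Abcg1, with 666 residues the shortest protein, had 32.7% to 36.1% identity to the others at aligned positions. These positions cover only part of the longer proteins, and with gaps counted the identity of Abcg1 was 9.30% to 13.6%. Abcg1 held 1 match to the Walker A motif, the loop that binds ATP, and each A subfamily member held 2, and Abcg1 is known to work as a pair of copies.

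**Figure D3:**
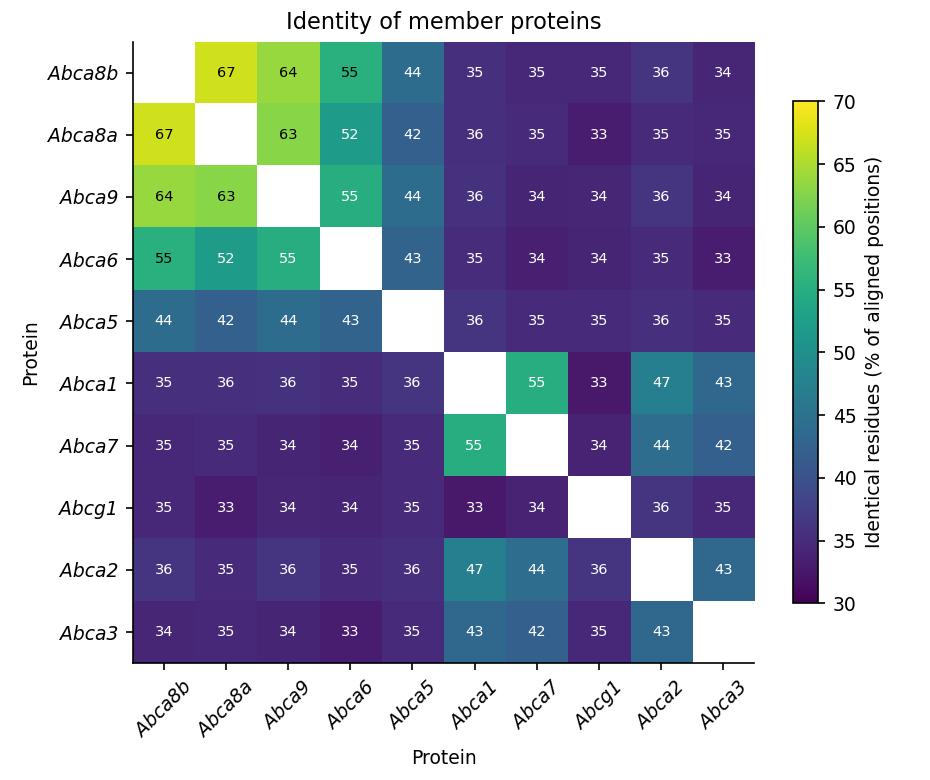
Percent of aligned residues that are identical (colour scale from 30 to 70, value in each cell) for each pair of the 10 proteins, with the cluster in the upper left. Abca8b, Abca8a, Abca9 and Abca6 form a block above 50%, Abca5 lies at 42.3% to 44.2% with them, and Abca7 and Abca1 are at 54.9%.

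To see whether the difference extended along the chromosome, the 15 other protein-coding genes within 1 Mb of the cluster were examined, of which 11 were tested. In edgeR 4 rose, 2 fell and 5 were not called, with a median log2 fold change of 0.24 beside 0.00 over all genes tested. Of all tested genes, 29.0% were called higher and 29.9% lower. Fam20a, a pseudokinase of the secretory pathway and the nearest tested gene beyond Abca8b, had 26.9 ± 2.39 CPM in GFP libraries and 26.3 ± 1.57 CPM in OEIRF7 libraries, with a log2 fold change of -0.03 (SE 0.07, edgeR adjusted p = 0.72). Map2k6, a kinase that activates p38 and the nearest tested gene beyond Abca5, rose from 1.42 ± 0.340 to 2.40 ± 0.519 CPM (log2 fold change 0.76, SE 0.22, edgeR adjusted p = 0.0082). Rgs9, a regulator of G protein signalling, rose by 1.16 on the log2 scale (SE 0.22, edgeR adjusted p = 0.00039), and Axin2, a Wnt feedback gene, by 0.92 (SE 0.30, edgeR adjusted p = 0.016) on 9 to 24 counts a library in the GFP group and 23 to 37 in the OEIRF7 group. The Axin2 call was lost without GFP library 3, without OEIRF7 library 2 and with limma on FPKM at either pseudocount. Within 0.5 Mb of the cluster 1 of 7 tested genes rose and 2 fell, with a median log2 fold change of -0.04. No neighbour had a log2 fold change as negative as that of any lower cluster gene, the lowest being Arsg, a lysosomal sulfatase named here after its value was seen, at -0.63 (SE 0.12, edgeR adjusted p = 0.00035).

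**Figure D4:**
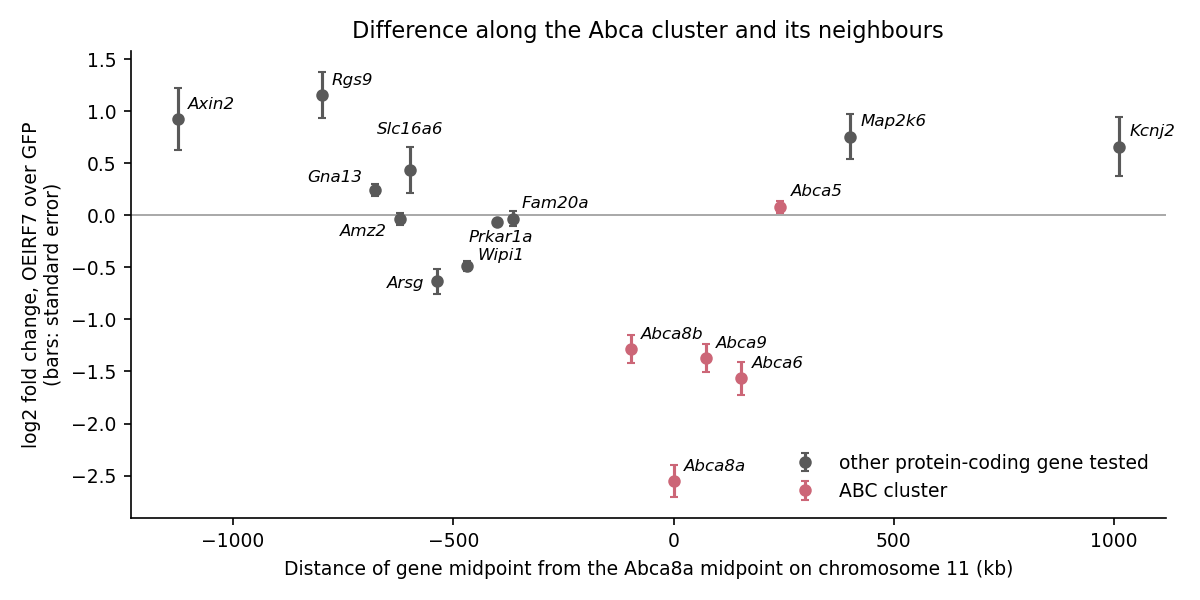
Log2 fold change, OEIRF7 over GFP, with its standard error (vertical) against the distance of each gene's midpoint from that of Abca8a in kb (horizontal), for the 5 cluster genes in red and the 11 tested neighbours in grey. Abca8b, Abca8a, Abca9 and Abca6 lie between -2.55 and -1.28, whereas Abca5 at 0.08 and Fam20a at -0.03 lie close to 0.

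Of the other ABC transporters, 40 were in the table and 26 were tested. In edgeR 12 rose, 7 fell and 7 were not called, with a median log2 fold change of 0.06. Over all tested genes 29.0% were called higher and 29.9% lower. The 5 past a log2 fold change of 1 all rose, where 4.66% of all genes rose and 3.89% fell past that line. No other tested ABC gene had a log2 fold change as negative as those of the 5 lower members, the lowest being Abcd4, named after its value was seen, at -0.51 (SE 0.11, edgeR adjusted p = 0.00091). The count past 1 was 3 where at least 10 counts were required in every library, and 2 with limma on FPKM at either pseudocount. Abcb1a, a drug efflux pump, rose from 2.83 ± 0.713 to 18.9 ± 0.782 CPM (log2 fold change 2.73, SE 0.12, edgeR adjusted p = 1.6e-10). Its counts were 51 to 99 in GFP libraries and 455 to 559 in OEIRF7 libraries. The paralog Abcb1b rose from 23.2 ± 0.821 to 51.2 ± 3.42 CPM (log2 fold change 1.15, SE 0.05, edgeR adjusted p = 3.1e-10). As 22.5% and 12.8% of their 50-base words occur in another gene, mostly in each other, how reads were divided between the pair is uncertain. Abcc2, an exporter of organic anion conjugates, rose by 1.25 on the log2 scale (SE 0.23, edgeR adjusted p = 0.00025) to 1.89 ± 0.141 CPM. Abca13, a very long relative of the A subfamily, rose by 2.20 (SE 0.29, edgeR adjusted p = 1.1e-05), from 6 to 12 counts in GFP libraries to 34 to 53 in OEIRF7 libraries. Abcb11, the bile salt export pump of liver, rose by 2.48 (SE 0.51, edgeR adjusted p = 0.00072), but on 0 to 6 counts against 16 to 20. By subfamily, 3 of 8 tested B genes rose and 3 fell, 4 of 7 C genes rose and 2 fell, and of 4 D genes, which serve peroxisomes and lysosomes, none rose and 2 fell.

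The genes around Abca1 in sterol biology are set beside the shares of all tested genes, of which 29.0% were called higher and 29.9% lower. Of 15 LXR and RXR genes and genes they are known to switch on, all tested, 4 rose, 4 fell and 7 were not called in edgeR, none past a log2 fold change of 1, with a median of -0.02. Nr1h3, which encodes LXRα, rose from 2.50 ± 0.394 to 3.84 ± 0.737 CPM (log2 fold change 0.62, SE 0.17, edgeR adjusted p = 0.0059). Apoe, an apolipoprotein that accepts exported sterol, fell from 176 ± 14.6 to 121 ± 4.41 CPM (log2 fold change -0.54, SE 0.05, edgeR adjusted p = 5.3e-07). Pltp, a phospholipid transfer protein, fell by 0.45 on the log2 scale (SE 0.10, edgeR adjusted p = 0.00098). The 15 log2 fold changes ran from that of Apoe to 0.77 for Apoc1, which was not called (edgeR adjusted p = 0.088), so none was as negative as the -1.41 of Abca1. Of 15 sterol traffic genes, all tested, 6 rose, 4 fell and 5 were not called, with a median log2 fold change of 0.04. Ch25h, the enzyme that makes the oxysterol 25-hydroxycholesterol, rose from 4.08 ± 0.644 to 10.4 ± 1.23 CPM (log2 fold change 1.35, SE 0.12, edgeR adjusted p = 2.7e-07). Soat1, which esterifies cholesterol for storage, rose from 72.1 ± 2.75 to 124 ± 4.19 CPM (log2 fold change 0.78, SE 0.04, edgeR adjusted p = 5.1e-10). Cav1, the coat protein of caveolae, fell by 0.61 on the log2 scale (SE 0.06, edgeR adjusted p = 1.2e-06).

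**Figure D5:**
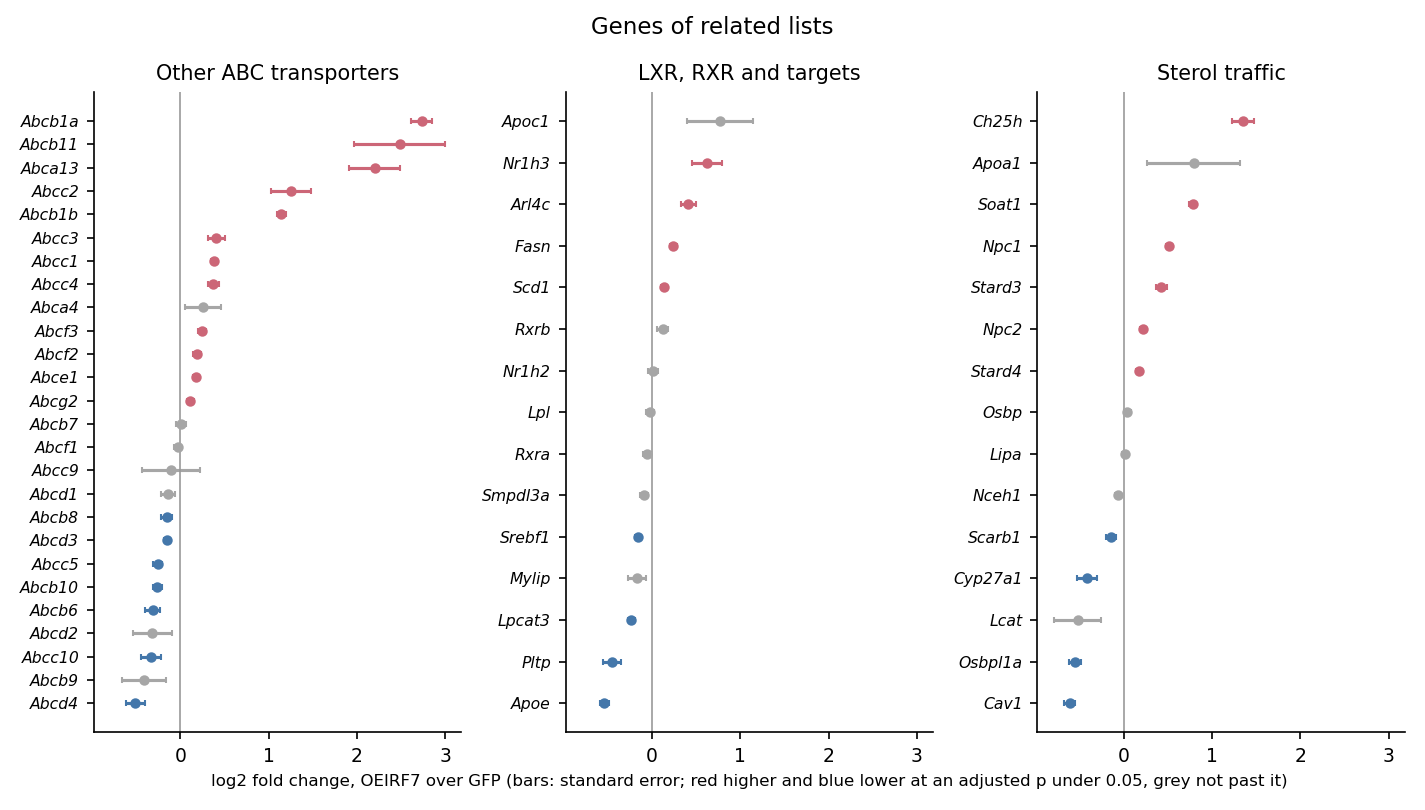
Log2 fold change, OEIRF7 over GFP, with its standard error (horizontal) of each tested gene (vertical) among other ABC transporters, LXR and RXR genes with their targets, and sterol traffic genes. Red points were called higher and blue points lower in edgeR, and the 5 other ABC transporters past 1 are all on the higher side, led by Abcb1a at 2.73.

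The genes most like Abca8a over the 8 libraries were sought among 10320 genes with a mean above 5 CPM, by the Euclidean distance between log2 CPM values centred on each gene's mean. As Abca8a differs between the groups, a short distance mostly marks a gene with a difference of the same size. The nearest were Myl9, a myosin light chain of contractile cells (distance 0.562), Fmod, the collagen-binding proteoglycan fibromodulin (0.738), Apcdd1, a Wnt inhibitor (0.820), Irf7 itself (0.853) and Slc1a6, a glutamate transporter (0.857). The members lay farther, with Abca6 at 1.57, Abca1 at 1.67, Abca9 at 1.80 and Abca8b at 1.90, and the other members between 3.56 and 4.36. The likeness depends on the scale. By log2(FPKM + 1), where low levels are compressed, these 5 genes took ranks from 258 for Apcdd1 to 8239 for Irf7.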

How the data were processed

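RNA-seq was analysed for 8 libraries of TGF-β-treated murine cardiac fibroblasts, 4 labelled GFP and 4 labelled OEIRF7. The authors trimmed reads with Trimmomatic, mapped them to GRCm38 with HISAT2 and deposited the raw counts of each gene, made with HTSeq-count. Beside these counts the authors deposited FPKM, made with Cufflinks. Tool versions and the strand setting are not given in the sources used here, and the labels and the study's methods name different extraction and library kits. The deposited group means, log2 ratio, p-value and FDR columns belong to the authors' own comparison and were not used.

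The members and all gene lists were chosen with earlier results of these data known. Counts were filtered with filterByExpr, scaled by TMM and compared with glmQLFit and glmQLFTest of edgeR 4.0.16 in R 4.3.3 with no covariate, and p-values were adjusted by Benjamini-Hochberg over 13533 genes. The standard error of each log2 fold change was taken as its absolute value divided by the square root of the F statistic of that test. Those of the members therefore also come from the test. CPM were computed from TMM-scaled library sizes, and log2 CPM with a prior count of 2. Alternatives used DESeq2 1.42.0, limma 3.58.1 on log2(FPKM + 1) and log2(FPKM + 0.1), other scalings and filters, a replicate block and each library left out. Named are all members, from each list the genes past an adjusted p of 0.05 and a log2 fold change of 1 or the 3 called genes that changed most, the nearest tested neighbours on either side, Irf7, the cell type markers and the 5 genes nearest to Abca8a. The scripts were tested on simulated data. Any 2 replicates of a group differed beyond sampling noise (chi-square over degrees of freedom from 2.69 to 8.67), so none was counted as a repeat deposit.

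Coordinates and exons came from GENCODE M21 on GRCm38.p6, and promoter windows from RefSeq on the same build. RefSeq protein sequences were not used here, so proteins were translated from GENCODE coding sequences, aligned with BLOSUM62 in Biopython 1.88 and used for identities and motif matches. Of the 22274 identifiers, 22219 were found in GENCODE M21.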

Additional observations from a re-analysis of the deposited data

Results flagged for a closer look

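In groups of 4 libraries, a library whose gap to the nearest other, divided by the group's whole range, passed Dixon's critical value was singled out. This was checked in 54 groups of values and picked out 5, where chance gives about 1 in 20 groups. CPM and FPKM of the same libraries are not independent, and Abca6 and Abca2 were each picked out on both. The 5 are therefore not separate events. Abca6 in OEIRF7 library 4 was at 1.74 CPM, where the other OEIRF7 libraries were between 1.24 and 1.32, and at 0.34 FPKM, where the others were at 0.24 and 0.25. All of these Abca6 values lay below the lowest GFP library. Abca2 in GFP library 2 was at 42.8 CPM beside 49.0 to 49.6 in the other GFP libraries, and at 5.29 FPKM beside 6.04 to 6.11. Without that library the log2 fold change of Abca2 was 0.26 in place of 0.31. Abcb1b, the drug efflux pump outside the set, was at 56.3 CPM in OEIRF7 library 2 and at 49.1 to 50.2 in the other OEIRF7 libraries.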

How the results depend on the processing

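Each of the 10 members kept the sign of its log2 fold change in all 16 alternatives, and the 5 lower members, Abca7 and Abca2 kept their call in each. Abca8a ranged from -2.69 to -1.21, Abca6 from -1.69 to -0.49, Abca9 from -1.49 to -0.73, Abca8b from -1.39 to -0.77 and Abca1 from -1.45 to -1.17, the smallest sizes coming from limma on log2(FPKM + 1), a scale that compresses low levels. There 2 of the 5 lower members stayed past a log2 fold change of 1. Leaving out each library in turn gave -2.69 to -2.44 for Abca8a. Of the other ABC transporters, 5 rose past that line, against 3 with at least 10 counts in every library and 2 with limma at either pseudocount. Over all genes 631 rose and 527 fell past it. With at least 10 counts in every library 408 rose, and with limma on log2(FPKM + 1) 264 rose and 171 fell. With the thresholds of the study's methods (0.05 for p without adjustment, fold changes of 1.5 and 0.66) 1282 rose and 1294 fell. There the p-values were those of edgeR, whereas the study's methods name DESeq, so these are not the study's own counts. Among neighbours 4 rose, and 1 within 0.5 Mb. The cause of these shifts was not tested beyond the fewer genes that a stricter filter or a narrower window holds. Of 681 comparisons for 43 called genes of the lists, 647 kept their call, 34 lost it and none reversed.

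The numbers 1 to 4 are shared by both groups, but nothing states that they pair cultures. Deviations of same-numbered libraries correlated at 0.0792, 0.0953, 0.138 and 0.104. Libraries of different numbers correlated at -0.158 to 0.0476, so each library correlated best with its own number. Whether same-numbered libraries share a preparation was not tested, and the main fit treats them as unpaired. With a replicate block 5 members were lower and 3 higher, and 4057 genes rose and 4154 fell. Genes under about 1 CPM rest on few counts, and 4 libraries a group limit what can be called.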
